A study of Mus musculus with 6 samples.

Results

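The genes described here build the protein import machinery of mitochondria and set the shape of the organelle. They were taken by symbol: every gene of the table whose symbol begins with Tomm, Timm or Chchd, together with Opa1, Mfn1, Mfn2, Dnm1l, Fis1, Mff, Immt, Pink1, Samm50 and Phb2. This gave 45 genes of the 24559 in the table. The rule itself uses no measured value, but it was set with earlier results of these data known. RNA sequencing was done on CD8+ T cells from the spleen of wild-type C57BL/6 mice, kept in primary culture, in 2 groups of 3 libraries. One group had received L-4F, an apolipoprotein A1 mimetic peptide, and the other the buffer that the labels call ABCT Buffer. Both groups shared genotype, tissue and cell type, and no dose, duration, sex or age is given in the sources used here. The study asked how apolipoprotein A1 acts on the immune functions of these cells.

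Most mitochondrial proteins are made in the cytosol and enter the organelle through the TOM complex of the outer membrane. From there the small Tim chaperones escort hydrophobic precursors across the intermembrane space, the TIM22 complex inserts carriers into the inner membrane, and the TIM23 complex passes precursors with a presequence into the matrix. The shape of the network is set by fusion, carried out by the mitofusins and Opa1, and by fission, carried out by the dynamin-related GTPase Dnm1l and its outer membrane receptors, and activated T cells are known to remodel it.

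Of the 45 genes, 44 passed the filter on low values (at least 10 normalized reads in at least 3 libraries) and were tested, as were 14922 genes in all. A normalized read is a read count divided by the library's size factor. In the limma fit over all these genes, with a gene called at a Benjamini-Hochberg adjusted p under 0.05, 23 import and dynamics genes rose with L-4F, 3 fell and 18 did not pass. The called share was 59.1%, against 38.2% of all genes tested. By direction, 18.4% of all genes tested rose and 19.7% fell. The median log2 fold change of the 44 genes was 0.17, while that of all genes tested was 0.00, and 35 of the 44 genes had a value above 0. The libraries of the groups did not overlap for 27 of the 44 genes, against 47.6% of all genes tested. The gene that missed the filter was the pseudogene Chchd2-ps, with means of 2.91 normalized reads in buffer and 2.82 with L-4F. The changes were small, and no import or dynamics gene moved by more than the 0.47 log2 units of Fis1. Whether each library stands for its own animal or culture is not stated in the labels, and the p-values then describe only the spread among these samples, which may be technical. In bulk RNA, fewer cells of a type and less RNA per cell cannot be told apart.

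**Figure D1:**
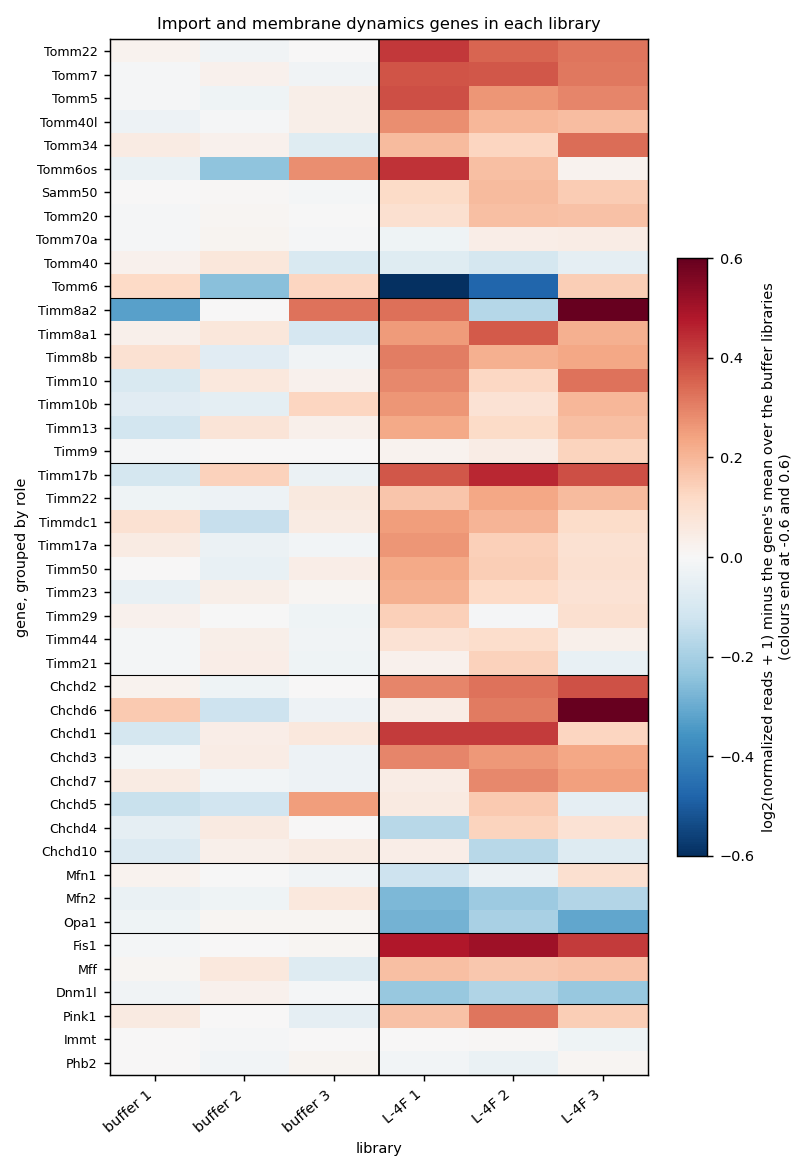
Heat map of the 44 tested import and dynamics genes (rows, grouped by role) in the 6 libraries (columns). Colour gives log2(normalized reads + 1) minus the gene's mean over the 3 buffer libraries, red above and blue below it, with colours ending at 0.6 in either direction; Fis1 is red in all 3 L-4F libraries, Opa1, Mfn2 and Dnm1l are blue in all 3, and Tomm6 is dark blue in only 2 of them.

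The promoters of 4 genes are shown because these genes mark both directions of the change: Fis1, Tomm22 and Chchd3 rose, and Opa1 fell. Each sequence is the 250 bases before the start of the gene, read 5' to 3' on the gene's strand from RefSeq on GRCm38.p6. Capitals mark the ETS letters CCGGAAG, or their reverse complement, and in Opa1 the NRF1 letters, which are GCGCA and GCGC with any base between them. In Tomm22 the capitals are a pair of overlapping ETS matches on opposite strands. The 4 promoters do not stand for all genes of their direction. ETS letters were in 8 of 20 genes that rose, and Mfn2 and Dnm1l, which also fell, hold neither motif.
Fis1, chr5:136953025-136953274, plus strand: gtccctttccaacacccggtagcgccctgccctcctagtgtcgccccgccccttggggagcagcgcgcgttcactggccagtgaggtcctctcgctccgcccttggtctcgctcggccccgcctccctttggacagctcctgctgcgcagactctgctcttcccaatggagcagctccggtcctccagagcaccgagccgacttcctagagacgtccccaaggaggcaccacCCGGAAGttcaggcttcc
Tomm22, chr15:79670618-79670867, plus strand: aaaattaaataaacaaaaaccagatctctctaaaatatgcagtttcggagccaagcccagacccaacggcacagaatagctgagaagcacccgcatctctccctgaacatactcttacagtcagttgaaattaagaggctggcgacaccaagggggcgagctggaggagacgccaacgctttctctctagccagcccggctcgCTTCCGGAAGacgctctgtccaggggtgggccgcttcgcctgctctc
Chchd3, chr6:33060261-33060510, minus strand: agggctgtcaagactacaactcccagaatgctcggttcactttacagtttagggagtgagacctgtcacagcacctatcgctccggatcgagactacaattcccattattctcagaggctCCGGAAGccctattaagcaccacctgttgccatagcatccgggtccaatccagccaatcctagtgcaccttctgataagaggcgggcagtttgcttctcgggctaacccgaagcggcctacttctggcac
Opa1, chr16:29579084-29579333, plus strand: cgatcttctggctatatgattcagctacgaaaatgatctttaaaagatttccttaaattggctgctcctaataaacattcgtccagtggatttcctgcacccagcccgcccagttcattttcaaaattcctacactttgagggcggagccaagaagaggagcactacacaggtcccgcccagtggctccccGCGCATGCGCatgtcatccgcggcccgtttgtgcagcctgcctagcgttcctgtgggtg

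Promoters were found by symbol for 39 of the 45 genes, 6 of them with several starts, of which any counted, and both strands were searched. None of the 4 motifs holds the letters of another. ETS factors and NRF1 are transcription factors known to act at promoters of nuclear genes for mitochondrial proteins. The ETS letters stood in 15 of the 39 genes (38.5%), against 16% of the 10131 tested genes matched by symbol. They were in the promoters of 8 of 20 genes that rose (40%), in 7 of 16 that did not pass (43.8%) and in 0 of 3 that fell, so genes that rose and genes that did not pass held them in similar shares. The NRF1 letters were in 4 of 39 genes (10.3%), namely Opa1, Pink1, Tomm20 and Chchd4, against 9.34% of tested genes. The letters CCAAT were in 15 of 39 genes (38.5%, against 40.6%) and the SP1 letters GGGCGG in 21 of 39 (53.8%, against 62.4%). A match describes the letters of the window and is not evidence of a bound site.

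The outer membrane group holds every Tomm gene and Samm50, and so also the cytosolic helper Tomm34 and the antisense transcript Tomm6os. It mostly rose: 7 of its 11 genes passed the test upward, none downward (63.6% called, against 38.2% of all genes tested). The median log2 fold change of the group was 0.21. The clearest was Tomm22 (ENSMUSG00000022427, chr15:79670861-79673400 on GRCm38, plus strand), the central receptor that ties the other receptors to the pore. It had 2207, 2144 and 2185 normalized reads in buffer libraries 1 to 3 and 2925, 2779.7 and 2723 in L-4F libraries 1 to 3. The lowest L-4F library was above the highest buffer library, and the log2 fold change was 0.37 (SE 0.038, 95% interval 0.29 to 0.44, adjusted p = 9.0e-08). Tomm5, a small subunit that helps assemble the pore, had 1458, 1438.5 and 1502 normalized reads in buffer and 1916.5, 1761 and 1797 with L-4F, again without overlap (log2 fold change 0.31, SE 0.045, adjusted p = 8.7e-06). Tomm7, another small subunit, which also takes part in holding Pink1 at the outer membrane, rose by 0.36 on the log2 scale (adjusted p = 2.2e-05).

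Tomm20, the receptor for precursors with a presequence (ENSMUSG00000093904, chr8:126930667-126945844, minus strand), had 3682.5, 3727 and 3692 normalized reads in buffer and 3951, 4195 and 4175 with L-4F. Samm50, the core of the machinery that inserts barrel-shaped proteins into the outer membrane, had 3371, 3384 and 3337 in buffer and 3644, 3842 and 3741 with L-4F. Both kept their groups apart, at a log2 fold change of 0.15 each (SE 0.032 for both, adjusted p = 7.2e-04 for Tomm20 and 5.8e-04 for Samm50). Tomm34, a cytosolic helper of import, and Tomm40l, a relative of the pore protein, rose by 0.22 each (adjusted p = 0.0015 and 0.0024). The call for Tomm34 was lost when the spread was fitted without a trend and robust weights (adjusted p = 0.0696).

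The pore protein itself did not follow these partners. Tomm40 had 2189, 2254 and 2019 normalized reads in buffer and 2044.5, 1999.8 and 2073 with L-4F, with overlapping groups and a log2 fold change of -0.08 (95% interval -0.17 to 0.01, adjusted p = 0.172). Without the third buffer library it was called downward (-0.12, adjusted p = 0.0388), as it was with each library centred on its median (-0.12, adjusted p = 0.0336). Tomm70a, the receptor for carrier proteins, was level at 4544, 4623 and 4545 normalized reads in buffer and 4496, 4694 and 4706.5 with L-4F (log2 fold change 0.02, 95% interval -0.04 to 0.08, adjusted p = 0.657). Tomm6, a small subunit of the pore, varied most, with 1183.5, 914 and 1189.9 normalized reads in buffer and 661, 783 and 1207 with L-4F (log2 fold change -0.35, 95% interval -1.12 to 0.43, adjusted p = 0.42). Without the third L-4F library it was -0.60 with adjusted p = 0.0174. Tomm6os, a transcript antisense to Tomm6, stood between 19.8 and 32.3 normalized reads and did not pass (adjusted p = 0.607).

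Reads of Tomm6 cannot be separated with certainty from those of Gm21981, a same-strand gene that overlaps it and is identical to it over 589 bases. Gm21981 had 392.1, 504 and 182.5 normalized reads in buffer and 1097, 928 and 601 with L-4F. It was high where Tomm6 was low in the L-4F libraries. Their sum was 1576, 1418 and 1372 in buffer and 1757, 1711 and 1808 with L-4F, without overlap (1455 ± 107 against 1759 ± 48.7, SD, n = 3 each). The sum was chosen after the values were seen and was not tested, so the value of Tomm6 alone is uncertain.

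The small Tim chaperones form rings in the intermembrane space that shield hydrophobic precursors. All 7 tested had a positive log2 fold change, 4 of them passed the test upward, none downward, and the median was 0.25. The called share was 57.1%, against 38.2% of all genes tested. With the trend of the values with transcript length removed, none of the 7 was called and the median was 0.02. Timm8a1 (ENSMUSG00000048007, X chromosome), the counterpart of the human deafness-dystonia gene, had 797, 818 and 727 normalized reads in buffer and 932, 1007 and 904 with L-4F (log2 fold change 0.28, SE 0.063, adjusted p = 0.00115). Its partner Timm13 had 880.3, 1006 and 973 in buffer and 1113, 1029 and 1077 with L-4F (0.17, adjusted p = 0.0247). The groups did not overlap for either gene, but for Timm13 the gap between the closest libraries was narrow.

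Timm10 had 429, 478 and 465 normalized reads in buffer and 558, 499 and 573 with L-4F (log2 fold change 0.25, adjusted p = 0.0153). Its ring partner Timm9 had 970.2, 978 and 978 in buffer and 990.0, 1006 and 1072 with L-4F, which kept the groups apart but did not pass (0.07, 95% interval -0.04 to 0.18, adjusted p = 0.357). Timm8b had 479, 430.1 and 443 in buffer and 558, 523 and 529.5 with L-4F (0.25, adjusted p = 0.0101). So both rings had a member that rose, and the rise of Timm9 was smaller than that of Timm10, a difference that was not tested. Timm10b, which docks the rings at the TIM22 complex, had a log2 fold change of 0.18 and did not pass (adjusted p = 0.0567). It passed without the third buffer library (0.25, adjusted p = 0.02), without the second L-4F library (0.23, adjusted p = 0.0262) and with a minimum of 100 normalized reads (0.18, adjusted p = 0.0384). Timm8a2 was low, at 8.81 to 14.4 normalized reads in buffer and 9.93 to 19.8 with L-4F, and did not pass (adjusted p = 0.605).

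Several of these calls rested on single libraries. The call for Timm8b was lost without the second buffer library (0.22, adjusted p = 0.0531). That for Timm10 was lost without the first buffer library (0.20, adjusted p = 0.0862), the first L-4F library (0.23, adjusted p = 0.0537) or the third L-4F library (0.21, adjusted p = 0.0722). For Timm13 the same 3 libraries ended the call, with log2 fold changes of 0.12, 0.15 and 0.17 and adjusted p = 0.169, 0.0963 and 0.0574. A spread fitted without trend and robust weights ended the calls for Timm10 (adjusted p = 0.0583) and Timm13 (adjusted p = 0.105), and Timm13 was also lost with median centring (0.13, adjusted p = 0.0874) and with no filter (adjusted p = 0.0557).

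Of the 9 genes of the inner membrane translocases and their helpers, 6 rose and none fell, with a median log2 fold change of 0.16. The called share was 66.7%, against 38.2% of all genes tested. With the trend of the values with transcript length removed, 2 of the 9 rose and 0 fell, and the median was 0.05. That called share of 22.2% was below the 26.4% of all genes. Timm17b (ENSMUSG00000031158, chrX:7899357-7908351, plus strand), a channel subunit of the TIM23 complex, had 543, 643 and 570.2 normalized reads in buffer and 756, 799 and 764 with L-4F. Its log2 fold change of 0.40 (SE 0.070, 95% interval 0.26 to 0.55, adjusted p = 8.0e-05) was the second largest positive value among the 44 genes. Its paralogue Timm17a, a short-lived subunit, had 1529.8, 1443 and 1462 in buffer and 1773, 1632 and 1574 with L-4F (0.17, SE 0.049, adjusted p = 0.0103). Per kilobase of principal transcript the pair had buffer levels of 203.1 normalized reads for Timm17a and 245.9 for Timm17b. This order rests on annotated lengths of 7280 nt and 2381 nt, as the buffer means were 1478 and 585 normalized reads. Which transcripts the cells used was not tested.

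Timm23, which forms the core of that complex with the Timm17 proteins, had 1969.5, 2079 and 2047 normalized reads in buffer and 2354, 2204.5 and 2159.8 with L-4F (log2 fold change 0.14, adjusted p = 0.0109). Timm50, the receptor that hands precursors over from the TOM complex, had 1497, 1449.9 and 1534 in buffer and 1748, 1656 and 1594 with L-4F (0.16, adjusted p = 0.0106). In both genes the first L-4F library was the highest of the 6. Timm44, which tethers the Hsp70 motor to the channel, had 2109.6, 2173 and 2090.0 in buffer and 2254, 2289 and 2169 with L-4F, with overlapping groups (0.07, 95% interval -0.01 to 0.16, adjusted p = 0.142). Timm22, the insertase for carriers, rose by 0.20 (adjusted p = 0.0246) and Timmdc1, an assembly factor of respiratory complex I, by 0.19 (adjusted p = 0.0463). Timm29, a subunit of the TIM22 complex, and Timm21, which links TOM and TIM23, did not pass (0.08 and 0.04, adjusted p = 0.236 and 0.646).

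Leaving out 1 library ended 5 of these 6 calls at least once, and Timm17b was the exception. Timm17a was lost without the second buffer library (adjusted p = 0.052) or the first L-4F library (adjusted p = 0.0781), where its log2 fold change was 0.15 and 0.12. The same libraries ended the call for Timm50 (0.14 and 0.12, adjusted p = 0.0587 and 0.065). Timm23 was lost without the first buffer library (0.12, adjusted p = 0.068) or the first L-4F library (0.10, adjusted p = 0.0737). Timm22 was lost without the first buffer (0.18, adjusted p = 0.0801), the second buffer (0.18, adjusted p = 0.0812) or the second L-4F library (0.18, adjusted p = 0.0755). Timmdc1 was lost without the second buffer (0.12, adjusted p = 0.254), the third buffer (0.21, adjusted p = 0.0546), the first L-4F (0.16, adjusted p = 0.152) or the second L-4F library (0.18, adjusted p = 0.09). Median centring lowered these values by about the 0.04 by which it moved the median of all genes, and ended the calls for Timm17a (adjusted p = 0.0511), Timm50 (adjusted p = 0.0575), Timm23 (adjusted p = 0.0698), Timm22 (adjusted p = 0.0729) and Timmdc1 (adjusted p = 0.122). A spread fitted without trend and robust weights ended those for Timm17a (adjusted p = 0.0861), Timm50 (adjusted p = 0.0654), Timm23 (adjusted p = 0.0841) and Timmdc1 (adjusted p = 0.128), quantile normalization those for Timm22 (adjusted p = 0.0676) and Timmdc1 (adjusted p = 0.103), and no filter that for Timmdc1 (adjusted p = 0.0936).

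Proteins of the Chchd family carry a twin cysteine fold and reside mostly in the intermembrane space. Of 9 genes 8 were tested, 3 rose and none fell, with a median log2 fold change of 0.23. The called share of 37.5% was near the 38.2% of all genes tested, of which 18.4% rose and 19.7% fell. Chchd2, a stress-responsive partner of respiratory complex IV (ENSMUSG00000070493, chr5:129881156-129887470, minus strand), had 2509, 2432 and 2479 normalized reads in buffer and 3033, 3105 and 3219.9 with L-4F. The closest libraries of the groups lay further apart than the libraries within either group, and the log2 fold change was 0.33 (SE 0.036, 95% interval 0.26 to 0.41, adjusted p = 1.4e-07). Chchd3, the Mic19 subunit of the cristae organising complex MICOS (chr6:32790976-33060260, minus strand), had 2101, 2183 and 2076 in buffer and 2601, 2540.3 and 2492 with L-4F (0.26, SE 0.038, adjusted p = 8.6e-06). Chchd1, a protein of the mitochondrial ribosome, rose by 0.32 (adjusted p = 0.00173), a call lost when the spread was fitted without trend and robust weights (adjusted p = 0.0652).

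Chchd10, the paralogue of Chchd2 that shares a complex with it, had 560.4, 606 and 613 normalized reads in buffer and 608, 528 and 562 with L-4F (log2 fold change -0.07, 95% interval -0.22 to 0.08, adjusted p = 0.494). The groups overlapped, and the value lay on the other side of 0 from that of Chchd2. Chchd4, the Mia40 oxidoreductase that folds the small Tim chaperones and the Chchd proteins, had 871, 939.5 and 906 in buffer and 806, 994 and 960.2 with L-4F (0.02, 95% interval -0.13 to 0.16, adjusted p = 0.864). The chaperone substrates of Chchd4 included genes that rose while its own level gave no detectable difference. Chchd6 (0.33, adjusted p = 0.0765), Chchd7 (0.19, adjusted p = 0.117) and Chchd5 (0.05, adjusted p = 0.755) did not pass. Without the first L-4F library Chchd6 passed at 0.47 (adjusted p = 0.0158) and Chchd7 at 0.27 (adjusted p = 0.0438). Chchd6 also passed with a minimum of 100 normalized reads (adjusted p = 0.0489).

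**Figure D2:**
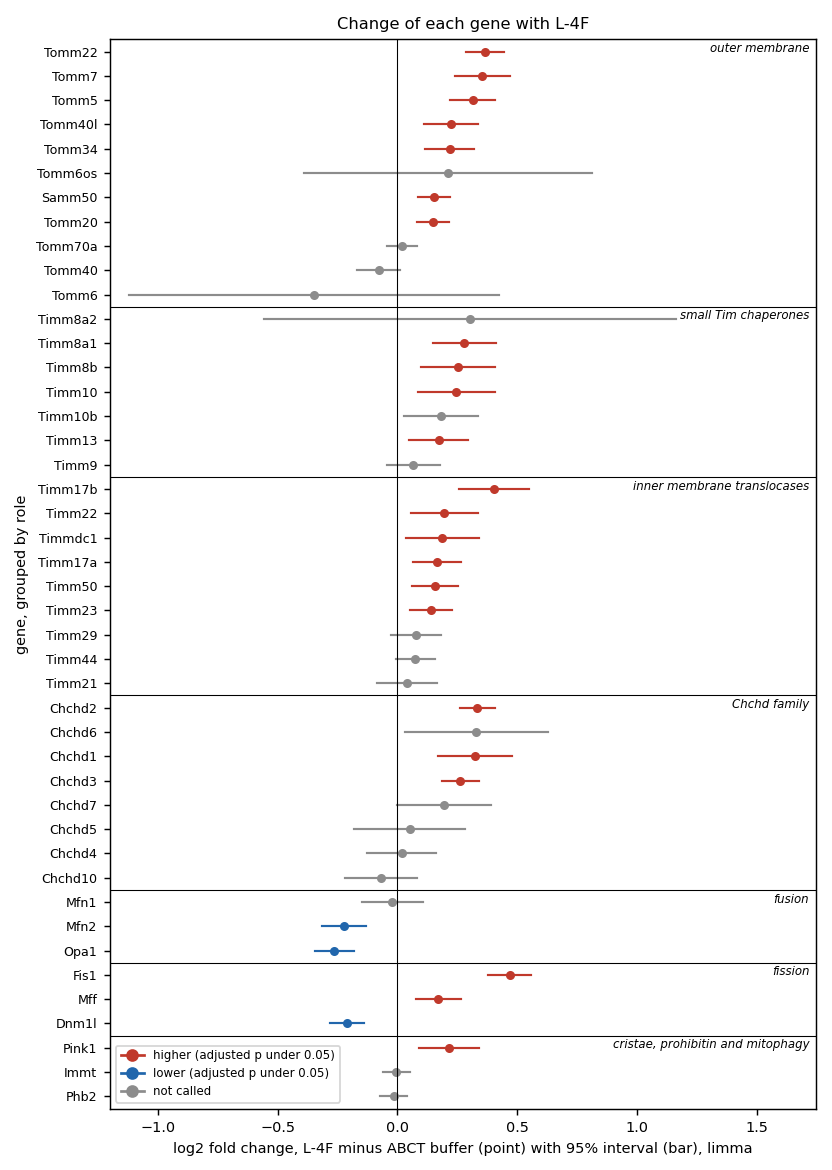
Log2 fold change of each tested import and dynamics gene, L-4F minus ABCT buffer (point), with its 95% interval from limma (bar), grouped by role; red genes rose, blue genes fell and grey genes did not pass. The interval of Fis1 begins at 0.38 and that of Tomm22 at 0.29, those of Opa1, Mfn2 and Dnm1l lie below 0, and the wide intervals of Tomm6, Tomm6os and Timm8a2 cross it.

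Fusion genes ran the other way: 2 of 3 fell, none rose, and the median log2 fold change was -0.22. All 3 have transcripts over 3000 nt, a length at which 34.2% of all genes fell. With the trend of the values with transcript length removed, the median was -0.08 and Opa1 was no longer called (-0.08, adjusted p = 0.126), while Mfn2 was (-0.15, adjusted p = 0.0123). Opa1, the GTPase that fuses inner membranes and keeps cristae tight (ENSMUSG00000038084, chr16:29579334-29654884, plus strand), had 2473, 2542 and 2543 normalized reads in buffer and 2071, 2198.5 and 2029.7 with L-4F. All 3 L-4F libraries were below all 3 buffer libraries, at a log2 fold change of -0.26 (SE 0.039, 95% interval -0.35 to -0.18, adjusted p = 1.4e-05). Mfn2, the mitofusin that also tethers mitochondria to the endoplasmic reticulum (ENSMUSG00000029020, chr4:147873599-147904704, minus strand), had 1813.5, 1833 and 1949 in buffer and 1545, 1602.5 and 1648 with L-4F (-0.22, SE 0.045, adjusted p = 3.8e-04). Its paralogue Mfn1 had 949.9, 935 and 924 in buffer and 859, 915 and 1001 with L-4F. These groups overlapped, and the value was -0.02 (95% interval -0.15 to 0.11, adjusted p = 0.824).

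All 3 fission genes passed the test, 2 upward and 1 downward, where 38.2% of all genes tested passed. Fis1, a small tail-anchored protein of the outer membrane (ENSMUSG00000019054, chr5:136953275-136966234, plus strand), had 1391, 1405.5 and 1416 normalized reads in buffer and 1958, 1997 and 1879.9 with L-4F. Its means were 1404 ± 12.2 and 1945 ± 59.5 (SD, n = 3 each), a 1.38-fold difference. The log2 fold change of 0.47 (SE 0.043, 95% interval 0.38 to 0.56, adjusted p = 1.5e-08) was the largest among the 44 genes in either direction. With the length trend removed Fis1 was at 0.26 (adjusted p = 8.6e-05), below Timm17a (0.40), Timm17b (0.33) and Tomm40l (0.32). Mff, the main receptor for Dnm1l in mammalian cells, had 1613, 1671 and 1516 in buffer and 1809.8, 1790.2 and 1801 with L-4F (0.17, SE 0.045, adjusted p = 0.0040). Dnm1l, the GTPase that constricts the organelle (ENSMUSG00000022789, chr16:16312230-16358959, minus strand), had 3208, 3309 and 3234.5 in buffer and 2776, 2871 and 2779.8 with L-4F (-0.21, SE 0.034, adjusted p = 3.0e-05). Fis1 and Mff thus rose while Dnm1l fell, and the groups overlapped for none of the 3.

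Of the genes for cristae, prohibitin and mitophagy, 1 of 3 rose and none fell (33.3% called, against 38.2% of all genes tested). Pink1, the kinase that marks damaged mitochondria for removal, had 905, 874 and 839 normalized reads in buffer and 986, 1089.8 and 966 with L-4F (log2 fold change 0.22, SE 0.060, adjusted p = 0.0064). Its call was lost when the spread was fitted without trend and robust weights (adjusted p = 0.0526). Phb2, the prohibitin that also serves as an inner membrane receptor for mitophagy, had 5693, 5612 and 5749 in buffer and 5615, 5528 and 5725 with L-4F (-0.02, 95% interval -0.07 to 0.04, adjusted p = 0.688). Immt, the Mic60 core of MICOS, had 5390.3, 5356 and 5392.5 in buffer and 5386, 5405 and 5286 with L-4F (-0.01, 95% interval -0.06 to 0.05, adjusted p = 0.896). Both were among the most abundant genes of the set per kilobase. Their narrow intervals cover only the spread among the libraries, not the trend of the values with transcript length. With that trend removed Phb2 was called downward (-0.09, adjusted p = 0.0174), as it was with the length of the principal transcript used instead (-0.17, adjusted p = 5.45e-05). Immt was not called with either length (0.00 and -0.02).

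The level of the genes per kilobase of principal transcript spanned a wide range in buffer, and it rests on the annotated length. Phb2 was highest at 4313 normalized reads per kilobase, followed by Chchd2 at 2703, Tomm5 at 2295, Immt at 1972, Fis1 at 1786.5 and Timm23 at 1732. The lowest tested genes were Timm8a2 at 12.6 and Tomm6os at 8.11, and Chchd2-ps stood at 6.29. On this scale the fission receptor Fis1 was above Dnm1l (819.6) and Mff (844.6), and the fusion genes Mfn2 (429.6), Opa1 (404.4) and Mfn1 (205.2) were lower.

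Direction moved with transcript length, in this set and in all genes alike. Spearman's rho between the log2 fold change and the longest annotated transcript was -0.50 over the 44 genes and -0.45 over 14910 tested genes with a length. These are descriptions across genes of the same libraries, and genes are not independent replicates. With a longest transcript up to 1500 nt, 9 of 13 import and dynamics genes rose and none fell (median 0.25), where 32.1% of 3190 such genes rose and 4.76% fell (median 0.19). Above 1500 and up to 3000 nt, 9 of 16 rose and none fell (median 0.20), against 25.6% and 6.48% of 4385 genes (median 0.08). Over 3000 nt, 5 of 15 rose and 3 fell (median 0.07), against 8.15% and 34.2% of 7335 genes (median -0.10). The small Tim chaperones were short, at a median of 1225 nt, and the fusion genes long, at 4562 nt. The long genes that rose were Tomm20 (4902 nt), Samm50 (4629 nt), Tomm40l (4712 nt), Timm17a (7280 nt) and Mff (3918 nt), and the 3 that fell were Opa1 (6230 nt), Mfn2 (4341 nt) and Dnm1l (3966 nt).

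**Figure D3:**
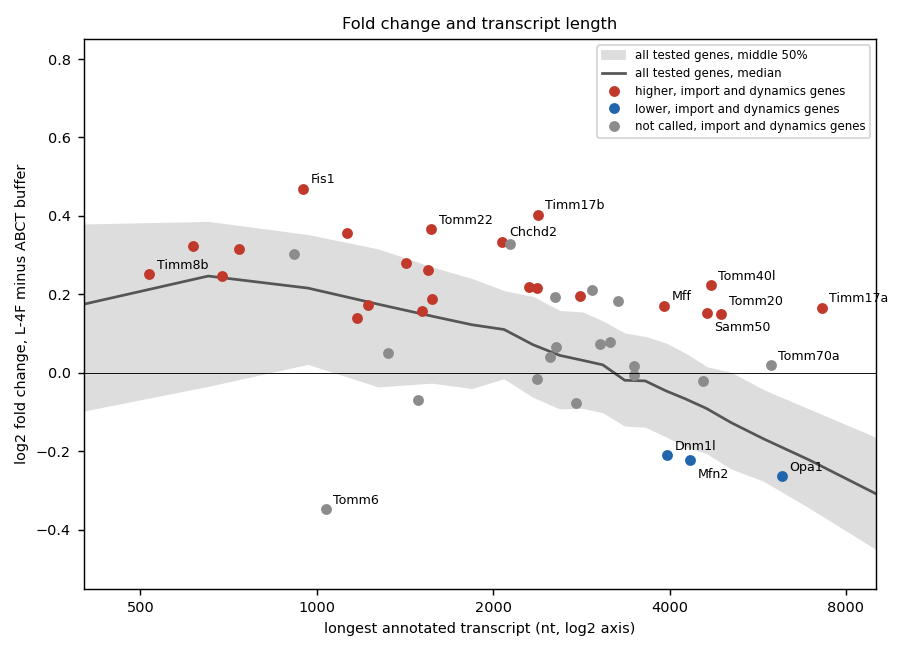
Log2 fold change, L-4F minus ABCT buffer, against the longest annotated transcript in nucleotides on a log2 axis; points are the import and dynamics genes, the line is the median of all tested genes and the band their middle 50%. The line runs from above 0 for short genes to below 0 for long ones, while Tomm20, Samm50, Tomm40l, Timm17a and Mff are long genes above 0.

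The fit was repeated after the smooth trend of the values with transcript length was removed from each library. Of the 44 genes, 13 then rose and 5 fell (40.9%, against 26.4% of all genes; 13.5% of all genes rose and 12.9% fell), with a median of 0.09 against -0.01 over all genes. Of the 11 genes of the outer membrane group 7 rose and 1 fell. Tomm5 was lost and Tomm70a gained among those that rose, and Tomm40 was now called downward. Fis1 (0.26, adjusted p = 8.6e-05), Tomm22 (0.22, adjusted p = 1.2e-04), Chchd2 (0.23, adjusted p = 3.6e-05) and Timm17b (0.33, adjusted p = 0.00108) stayed called upward. Long genes gained, with Timm17a at 0.40 (adjusted p = 3.4e-06), Tomm20 at 0.25 (adjusted p = 2.1e-06), Samm50 at 0.24 (adjusted p = 4.8e-06) and Tomm40l at 0.32 (adjusted p = 1.6e-04). Tomm70a, which had not passed, was called upward at 0.19 (adjusted p = 4.2e-05).

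Other calls ended with the trend removed. None of the 7 small Tim chaperones passed any longer: Timm8a1 was at 0.12 (adjusted p = 0.182), Timm8b at 0.02 (adjusted p = 0.883), Timm10 at 0.02 (adjusted p = 0.889) and Timm13 at -0.01 (adjusted p = 0.926). The same held for Tomm5 (0.09, adjusted p = 0.17), Chchd1 (0.10, adjusted p = 0.391), Timm50 (0.00, adjusted p = 0.961), Timm23 (-0.05, adjusted p = 0.43), Timm22 (0.16, adjusted p = 0.0883), Timmdc1 (0.04, adjusted p = 0.734) and Pink1 (0.14, adjusted p = 0.0848). Opa1 kept its sign at -0.08 and did not pass (adjusted p = 0.126). Dnm1l (-0.17, adjusted p = 5.6e-04) and Mfn2 (-0.15, adjusted p = 0.0123) stayed called downward. Tomm40 (-0.12, adjusted p = 0.0446), Chchd10 (-0.22, adjusted p = 0.0253) and Phb2 (-0.09, adjusted p = 0.0174) were called downward here and not on the values as deposited. With the length of the principal transcript instead, 15 rose and 5 fell, against 13% and 12.6% of all genes, and Mff was no longer called (0.08, adjusted p = 0.228), as its principal transcript has 1894 nt.

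**Figure D4:**
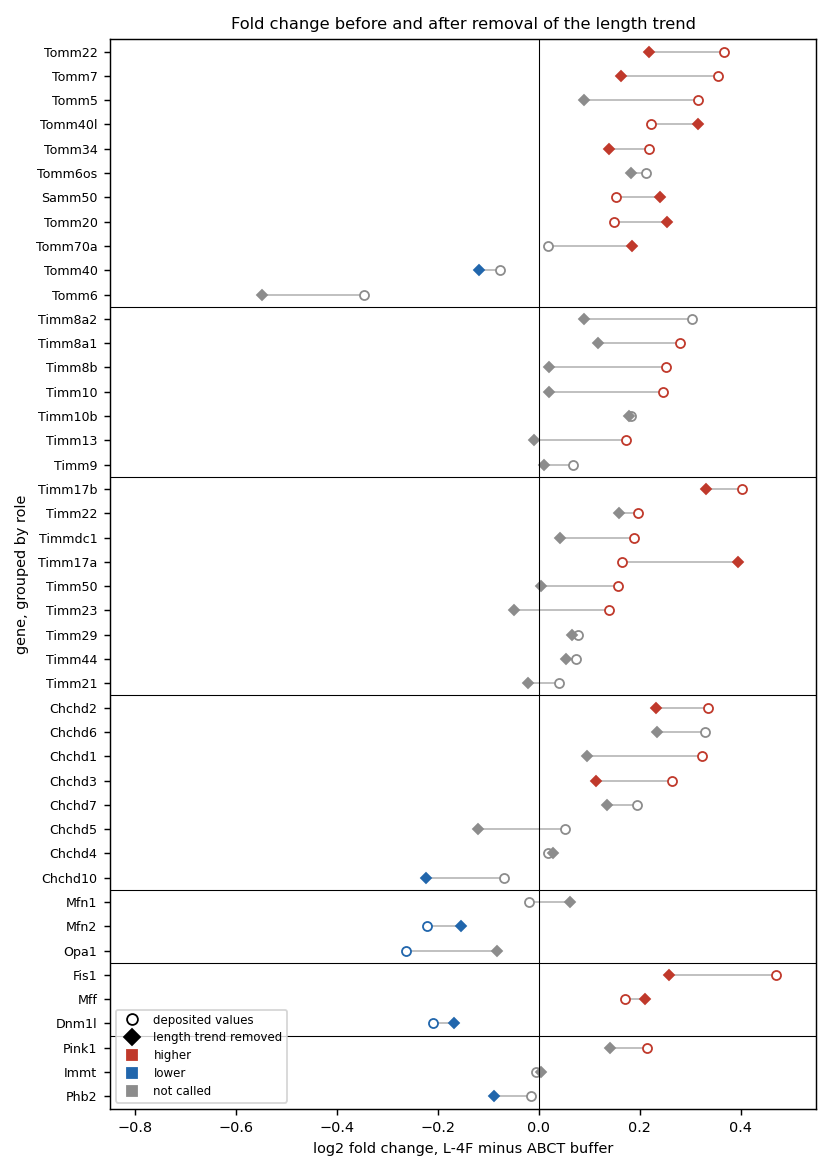
Log2 fold change of each tested import and dynamics gene, L-4F minus ABCT buffer, from the deposited values (open circle) and with the transcript length trend removed (filled diamond), grouped by role and coloured by call. Timm8b, Timm10 and Timm13 move to near 0, Timm17a, Tomm20 and Tomm70a move up, and Fis1 stays above 0 while Dnm1l and Mfn2 stay below it.

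Transcripts of other genes with at least 95% identity over at least 300 bases, here called copies, were found for 10 of the 45 genes. No source used here says how reads were shared out among them. For Tomm6 with Gm21981 and Timm10b with Gm45799, they are overlapping genes of the same strand. For Tomm40l with Nr1i3 and Tomm6os with Prickle4, they are overlapping genes of opposite strands. Adding the copies did not change the order of the groups for Timm8a1 with Gm9797 (1088, 1114 and 1013 normalized reads in buffer, 1289, 1372 and 1239 with L-4F). The same was seen for Timm23 with its copies (2402, 2615 and 2564 in buffer, 2913, 2740 and 2715 with L-4F), for Tomm20 (3883, 3918 and 3875 against 4160, 4451 and 4390) and for Chchd2 (2848, 2770 and 2786 against 3388, 3473 and 3602). Timm10b, whose groups overlapped alone, did not overlap once Gm45799 was added (595, 651 and 648.5 against 765, 700.4 and 734.5). These sums were formed after the values were seen and were not tested. Exons of Timm8b, Timm10b, Tomm70a, Timm29 and Tomm6 also overlap those of the expressed opposite-strand genes Nkapd1, Arfip2, Nit2, Yipf2 and Usp49. The libraries were strand-specific per the labels, but whether the counting used strand is not stated, so these 5 genes are uncertain. So are Tomm6os, which overlaps Tomm6 and Gm21981 on the opposite strand (25.7 reads on average, against 1001 and 609), and to a lesser extent Chchd1 and Chchd10, whose opposite-strand neighbours 6230400D17Rik and Mmp11 had few reads (42.5 and 53.3 on average).

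Other genes of the same pathway were taken as lists by role. Of 70 measured, 68 were tested, 26 rose, 10 fell and 32 did not pass (52.9% called, against 38.2% of all genes tested, of which 18.4% rose and 19.7% fell), with a median log2 fold change of 0.09. Dnajc11 and Phb each stood on a pair of the lists. With the length trend removed 18 rose and 2 fell, against 13.5% and 12.9% of all genes. Among the import motor, processing and delivery genes 11 of 26 rose and 4 fell (median 0.08), a called share of 57.7%. With the length trend removed 7 rose and 1 fell (30.8% called, against 26.4% of all genes). Hspe1, the matrix co-chaperonin, rose by 0.30 (adjusted p = 2.3e-07), Dnaja1, a cytosolic co-chaperone of precursors, by 0.22 (adjusted p = 1.9e-06) and Hspa8, the cytosolic Hsp70, by 0.15 (adjusted p = 2.6e-07). Xpnpep3, an intermediate cleaving peptidase (-0.33, adjusted p = 6.4e-04), Mtx3, a metaxin of the outer membrane (-0.22, adjusted p = 0.0083), and Hsp90ab1, the cytosolic Hsp90 (-0.10, adjusted p = 6.1e-06), fell. The matrix chaperones that pull in and fold precursors, Hspa9 (0.04, adjusted p = 0.246) and Hspd1 (0.01, adjusted p = 0.67), did not pass.

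The cristae organising partners had the highest median of the lists, 0.33, with 5 of 7 up and 1 down (85.7% called, against 38.2% of all genes tested). With the length trend removed the median was 0.15, and 4 rose and 0 fell (57.1% called, against 26.4% of all genes). Atp5l (0.41, adjusted p = 1.5e-08), a subunit of ATP synthase dimers, and the MICOS subunits Micos10 (0.38, adjusted p = 2.5e-07) and Micos13 (0.37, adjusted p = 4.1e-06) rose, while their core Immt did not pass, and Dnajc11, a J-domain partner of MICOS, fell (-0.12, adjusted p = 0.0148). With the length trend removed Atp5l, Micos10 and Micos13 stayed called upward, at 0.60, 0.32 and 0.15 (adjusted p = 7.4e-11, 5.5e-06 and 0.0293). Among quality control genes 3 of 14 rose and 1 fell (median 0.07), a called share of 28.6% that was below the 38.2% of all genes tested. Phb, the partner of Phb2 in the prohibitin ring, had 4520.6, 4551.5 and 4609.9 normalized reads in buffer and 5376, 5295 and 5296 with L-4F (0.22, adjusted p = 1.3e-06), so that 1 prohibitin rose and the other did not pass. Stoml2 (0.25, adjusted p = 1.3e-04), a scaffold of inner membrane proteases, and Ghitm (0.15, adjusted p = 2.1e-04) rose, and Yme1l1, a protease that cleaves Opa1, fell (-0.10, adjusted p = 0.0345).

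Among adaptors of dynamics and turnover 8 of 23 tested genes rose and 5 fell (median 0.04), 56.5% called against 38.2% of all genes tested. With the length trend removed 5 rose and 1 fell, a called share of 26.1% that was near the 26.4% of all genes. Phb was counted on this list as well. Fkbp8, a mitophagy receptor (0.21, adjusted p = 1.3e-05), and Fundc2 (0.36, adjusted p = 8.7e-05) rose. The motor adaptors Trak2 (-0.24, adjusted p = 1.4e-05) and Trak1 (-0.21, adjusted p = 6.2e-04) and the Dnm1l receptor Mief1 (-0.18, adjusted p = 0.0074) fell. Mief2 rose (0.30, adjusted p = 0.0233), a call lost with the length trend removed (0.24, adjusted p = 0.0903). With the length trend removed Trak2, Trak1 and Mief1 were at -0.06, -0.07 and -0.06 and did not pass (adjusted p = 0.218, 0.228 and 0.399). The same was true of Xpnpep3 (-0.16, adjusted p = 0.104), Mtx3 (-0.04, adjusted p = 0.705), Yme1l1 (-0.01, adjusted p = 0.898), Dnajc11 (0.03, adjusted p = 0.619), Hspe1 (0.09, adjusted p = 0.0513) and Fkbp8 (0.08, adjusted p = 0.0520).

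**Figure D5:**
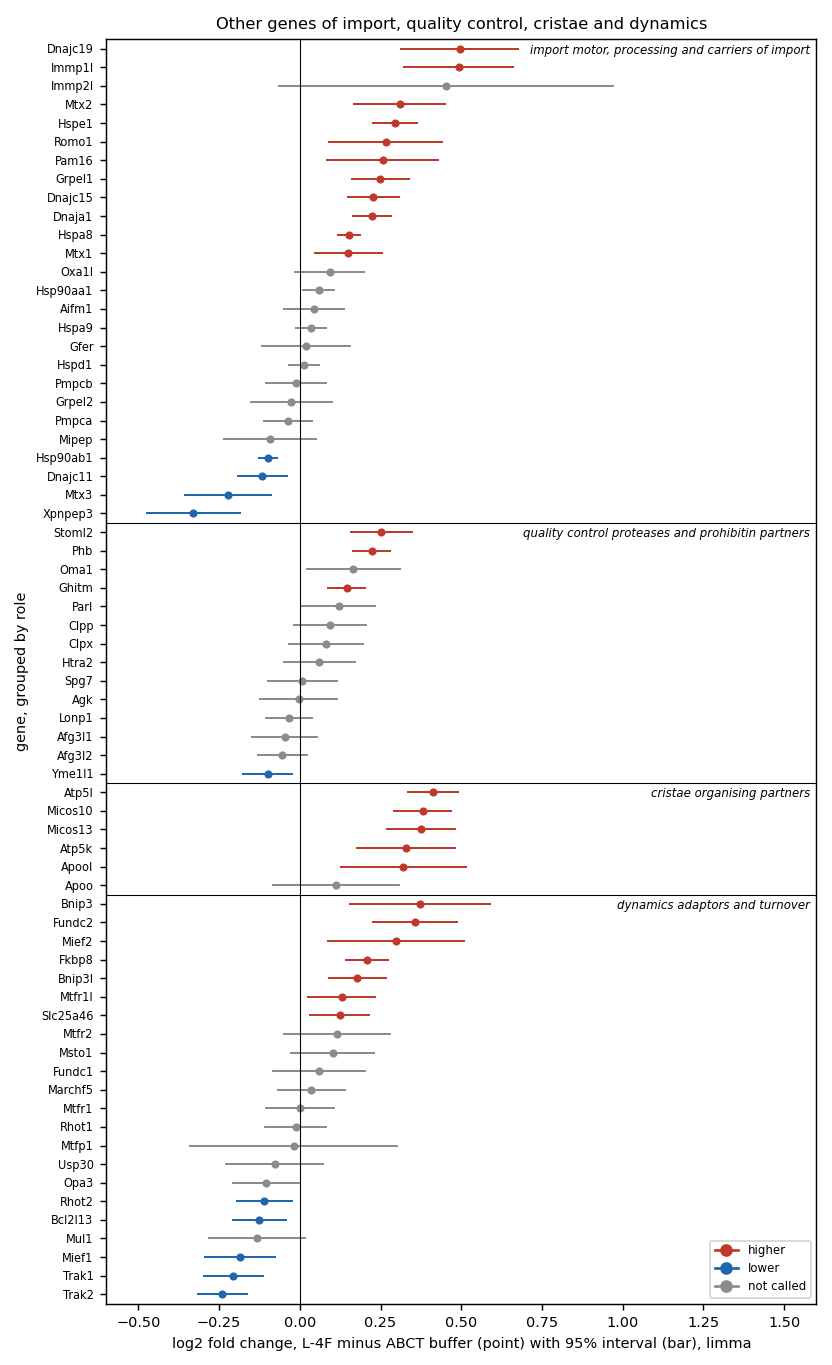
Log2 fold change, L-4F minus ABCT buffer (point), with its 95% interval from limma (bar), of the 68 other tested genes of the pathway, grouped by role, with a gene on a pair of lists drawn once; red genes rose, blue genes fell and grey genes did not pass. Of the cristae organising partners, Atp5l, Micos10 and Micos13 lie at 0.37 to 0.41.

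Library totals lay between 25073292 and 31332003 reads. Markers of CD8+ T cells were abundant: their summed level was 74800 to 75300 normalized reads in buffer and 85100 to 87600 with L-4F, and 5 of 6 rose, as did many of the import genes. Sums for CD4+ T cells were 218 to 226 in buffer and 207 to 251 with L-4F (0 of 3 rose and 1 fell), and for natural killer cells 6910 to 7250 and 7400 to 7630 (2 of 5 rose). Myeloid sums were 1290 to 1510 and 1420 to 1540 (2 of 7 rose, S100a8 and S100a9), B cell sums 221 to 262 and 309 to 338 (1 of 4 tested rose), erythroid sums 215 to 248 and 317 to 345 (2 of 4 tested rose) and stromal sums 1760 to 1770 and 1810 to 1950 (0 of 2 tested rose or fell). Most of the natural killer sum came from Eomes (mean 6100 in buffer, 6250 with L-4F) and most of the stromal sum from Pecam1 (1730, 1850). Lyz2 (1040, 1100) made up most of the myeloid sum and Cd79b (187, 269) most of the B cell sum. These sums thus do not measure the share of those cells. No marker was at 0 in all 6 libraries. The part of these markers in the results above was not tested.

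In the authors' deposited table, 22 genes of the set were higher and 3 lower with L-4F at a false discovery rate under 0.05. These 25 genes were all also called here in the limma fit, and Timmdc1 was called here alone.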

How the data were processed

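RNA was measured in 3 L-4F and 3 ABCT buffer libraries of mouse CD8+ T cells. Per the labels' protocols, total RNA went into strand-specific TruSeq libraries. StringTie 1.3.1c and FastQC (0.11.2, 0.11.5) are named, with no role, in the submitters' processing notes. No aligner, build or annotation is given in the sources used here. The authors deposited, for 24559 genes, 1 log2 value per library, a log2 fold change, a p-value and a false discovery rate. From the deposited log2 values, each was found to be log2 of a read count over a library factor, plus 1: dividing out the factor gave whole reads for 100% of values within 0.01 read. Normalized reads are that value without the log.

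The log2 values were tested with limma 3.58.1 in R 4.3.3 (statmod 1.5.0), with a trended, robust spread, over the 14922 genes with at least 10 normalized reads in at least 3 libraries. The Benjamini-Hochberg adjustment covered all of them, a gene was called at adjusted p under 0.05, and intervals are 95%. The method was tested on simulated data. Fold changes are on the log2(value + 1) scale, which understates low genes. An exact permutation test of 3 against 3 cannot go below p = 0.1 and was not used. Transcript lengths are from GENCODE M21 on GRCm38, and the length trend was a loess curve of span 0.3 per library. Alternatives covered scaling, filter, pseudocount, spread, voom weights, replicate block, length trend and leaving out each library.

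The genes, lists and tests were chosen with earlier results of these data known. Library values are given for 26 genes set by name and for the 2 smallest adjusted p-values of each role. Among pathway genes, up to 3 that rose and 3 that fell per role are named by smallest adjusted p, and Mief2 is named besides Mief1. Same-numbered libraries of the groups were not treated as pairs. No library pair matched within sampling noise.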

Additional observations from a re-analysis of the deposited data

How the results depend on the processing

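As reported, 26 import and dynamics genes were called, of which 23 rose and 3 fell. Without the trended robust spread 17 were called and 14 rose; all genes called went from 5694 to 4290. With a log2 fold change of at least 0.25 also required, 11 of 44 were called, 10 upward and 1 downward. Over all genes 3090 of 14922 were then called, 1434 upward and 1656 downward. With the length trend removed 13 rose and 5 fell, and with the principal transcript length, an alternative chosen after seeing the data, 15 rose and 5 fell. Leaving out 1 library gave 21 to 27 called, 18 to 23 upward and 3 to 4 downward, where 4816 to 5362 of 14922 genes were called. Median centring gave 21 (17 upward, 4 downward) and moved the split over all genes from 2747 higher and 2947 lower to 2161 higher and 3630 lower. Quantile normalization and no filter gave 24 each, where 5591 of 14922 and 5116 of 24559 of all genes were called. A minimum of 100 normalized reads gave 28 of 42, where 5633 of 10947 of all genes were called. A pseudocount of 0.1 and limma-voom gave 26 each, where 5681 and 5678 of 14922 genes were called.

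Same-numbered libraries correlated in their deviations at 0.0511, 0.0111 and 0.109. With 3 libraries a group, such small values cannot decide whether same-numbered libraries were pairs. With the replicate number as a block 25 genes were called, 22 upward and 3 downward, and only Timmdc1 lost its call (adjusted p = 0.0512). Over all genes 5521 of 14922 were called with this block. Buffer libraries 1 and 3 each correlated best with their own number, while buffer library 2 correlated better with the first L-4F library (0.0226) than with its own number.

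Apart from the fold requirement, 9 of the 23 genes that rose were called upward in every alternative run (Tomm22, Tomm7, Samm50, Tomm20, Tomm40l, Timm17b, Chchd2, Chchd3 and Fis1), as were 2 of the 3 that fell downward (Mfn2 and Dnm1l). Some values changed sign, among them those of Timm13 and Timm23, which had been called upward. Median centring gave Tomm70a -0.022, Timm21 -0.0010 and Chchd4 -0.022. Removing the length trend gave Timm13 -0.0097, Timm23 -0.048, Timm21 -0.022, Chchd5 -0.12, Mfn1 0.062 and Immt 0.0041. The principal length gave Timm9 -0.14, Timm23 -0.038, Timm44 -0.030, Chchd7 -0.022, Chchd5 -0.11 and Mfn1 0.088. Quantile normalization gave Phb2 0.034 and Immt 0.051. With 1 library left out, Timm21 ranged from -0.0092 (without the second L-4F) to 0.082, Chchd5 from -0.016 (without the first buffer) to 0.18 and Chchd4 from -0.041 (without the second L-4F) to 0.11. Mfn1 ranged from -0.079 to 0.032 (without the first L-4F) and Immt from -0.012 to 0.0043 (without the third L-4F). The cause was not tested. With 3 libraries a group, the intervals of genes that did not pass, such as Chchd4 and Mfn1, still hold differences as large as some that were called in other genes.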
